A study of Homo sapiens with 12 samples.

Results

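The m6A reader genes are a set of 9 genes whose proteins recognise N6-methyladenosine (m6A) in RNA, and they were taken by gene name from the 29696 genes of the expression table. They comprise the cytoplasmic YTH proteins YTHDF1, YTHDF2 and YTHDF3, the YTH proteins YTHDC1 and YTHDC2, the IGF2 mRNA-binding proteins IGF2BP1, IGF2BP2 and IGF2BP3, and FMR1. All 9 were among the 12985 genes tested, which had a mean of at least 0.5 FPKM (fragment counts divided by transcript length and library size). The study compared A375 cells, a human melanoma line, infected with a lentivirus carrying a short hairpin RNA against the m6A demethylase ALKBH5 (shALKBH5, labelled as ALKBH5 knockdown) with cells carrying a control hairpin (shCtrl, labelled as wild type, called Scramble in the study). Each group had 3 input RNA libraries and 3 libraries made by immunoprecipitation (IP) of m6A-containing fragments. The study's methods give 48 h after infection as the time of RNA-Seq harvest, and the ALKBH5 hairpin of the sequenced cells is not named there. Both groups derive from 1 cell line, and no label says whether the replicates were separate infections, so p-values measure only the spread between these libraries, which may be technical.

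Methyl groups are placed on adenosines in mRNA by a writer complex built around METTL3, removed by the erasers ALKBH5 and FTO, and bound by readers. YTH proteins hold the methylated base in an aromatic pocket of the YTH domain. YTHDF2 is known for bringing methylated mRNAs to the CCR4-NOT deadenylase, YTHDC1 for acting on splicing and export in the nucleus, and IGF2BP proteins for stabilising bound mRNAs. IGF2BP1 and IGF2BP3 are oncofetal proteins, low in most adult tissues and made again in many tumours.

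ALKBH5 itself reached 3.39, 3.92 and 3.12 FPKM in the knockdown (replicates 1, 2 and 3, the order used throughout) and 19.3, 17.8 and 17.6 FPKM in shCtrl cells, as the labels state. FPKM per input library summed to 212760 to 223231, read depth is unknown, and libraries correlated across genes at r = 0.981 to 0.984 within a group and at 0.929 to 0.934 between groups. Of the 9 melanocyte lineage markers analysed here, 4 averaged 1 FPKM or more over the 6 libraries (MITF, S100A1, S100B and SOX10, the last at 179 to 192 FPKM), while the pigment genes PMEL, TYR, DCT and TYRP1 stayed under 1 FPKM in every library. The summed melanocyte list was at 268 to 271 FPKM in shALKBH5 and 217 to 227 FPKM in shCtrl libraries, a gap that S100B carried (79.0 to 85.1 against 31.5 to 34.2 FPKM). PAX3, the remaining marker, went the other way, at 0.508 to 0.643 FPKM in shALKBH5 and 1.08 to 1.24 FPKM in shCtrl libraries. MITF lay near the average of 1 FPKM, at 0.645 to 1.57 FPKM over the 6 libraries, and MLANA, also on the list, had no value. Of the markers of other cell types analysed here, 1 of 3 for keratinocytes (10.7 to 11.5 against 8.90 to 9.53 FPKM summed), 2 of 8 for fibroblasts (5.85 to 7.01 against 9.30 to 10.1 FPKM, with PDGFRB lower and LUM higher in every shALKBH5 library), 2 of 4 for leukocytes (42.9 to 46.8 against 15.7 to 18.1 FPKM, mostly CD68) and 1 of 4 for endothelial cells (3.75 to 4.24 against 2.33 to 2.64 FPKM) reached that average, and their part in the results below was not tested.

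With ALKBH5 knocked down, YTHDF1, YTHDF3 and IGF2BP1 rose, IGF2BP3 fell, and YTHDF2, YTHDC1, YTHDC2, IGF2BP2 and FMR1 did not pass the test. The test was limma on log2(FPKM + 0.1) with an adjusted p below 0.05, on a scale that understates changes of low genes. The 4 readers called of 9 make 44.4%, against 61.0% of all genes tested. The 3 higher readers compare with 34.7% of all genes called higher and the 1 lower reader with 26.2% called lower. This background turned with the scaling, from 4509 higher and 3408 lower to 3756 higher and 3919 lower once libraries were rescaled to their median ratio, while the readers were at 3 and 1 in both. The median log2 fold change was 0.25 over the 9 readers and 0.09 over all genes tested.

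The library of shCtrl replicate 2 stood above the other shCtrl libraries in many readers. It was the highest shCtrl library in 7 of the 9 readers, against 40.7% of all genes tested. Its value was more than 20% above the mean of the other shCtrl libraries in 5 readers, with ratios of 1.56 for YTHDC2, 1.43 for YTHDC1, 1.39 for YTHDF3, 1.33 for IGF2BP3 and 1.24 for FMR1. Among all genes tested, 19.0% lay as far above and the median ratio was 1.01. Without this library 6 readers were higher, namely the former 3 with YTHDC1, YTHDC2 and FMR1, and IGF2BP3 was still lower, against 60.3% of all genes called and 35.7% called higher. The library was picked from the values of these same genes, so leaving it out was bound to raise most of their fold changes. The calls of YTHDC1, YTHDC2 and FMR1 are thus no separate evidence, and none of them passed in any other alternative. Each reader whose call rested on this library is therefore given below with and without it.

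**Figure D1:**
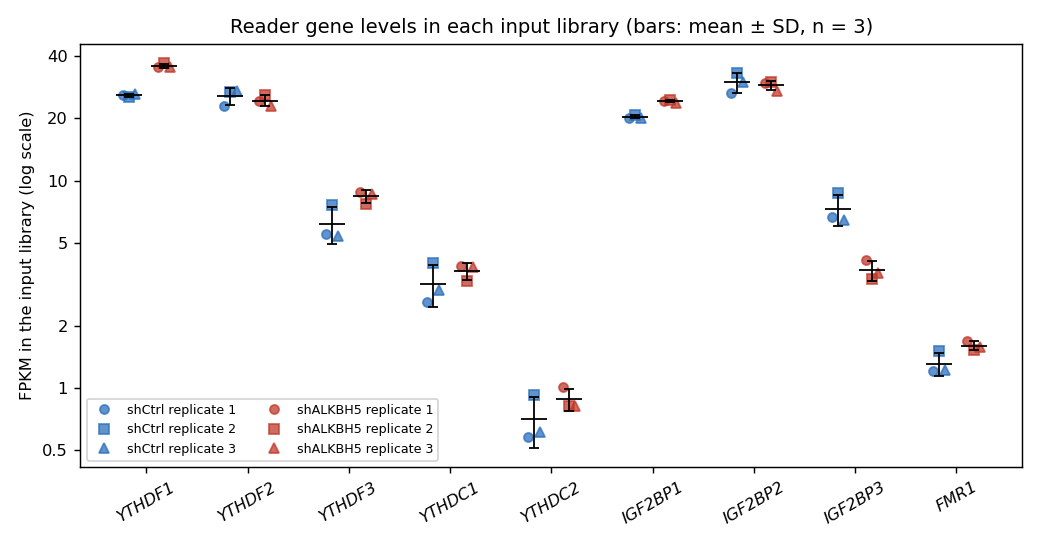
FPKM of the 9 reader genes (log axis) in the 3 shCtrl (blue) and 3 shALKBH5 (red) input libraries, with the mean and SD of each group as a bar. The groups stand apart in YTHDF1, IGF2BP1 and IGF2BP3, and shCtrl replicate 2 (blue square) lies above the shALKBH5 libraries in YTHDC1, among them in YTHDC2 and just under them in YTHDF3 and FMR1.

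YTHDF1 (ENSG00000149658, chromosome 20, 63195429 to 63216139, minus strand), a cytoplasmic reader known for promoting translation of its targets, was at 35.6, 37.0 and 35.3 FPKM in shALKBH5 cells and at 25.9, 25.4 and 26.2 FPKM in shCtrl cells. Every shALKBH5 library lay above every shCtrl library, and the spread within each group was small beside the gap. The mean rose from 25.8 ± 0.380 to 35.9 ± 0.915 FPKM (SD, n = 3), which was 0.47 on the log2 scale (SE 0.0383, 95% confidence interval 0.38 to 0.56, adjusted p = 3.885e-05). In bulk RNA, a rise in every cell cannot be told apart from a larger share of cells with the transcript, and this holds for each gene below. The call held under all 13 alternative settings and left-out libraries.

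YTHDF2 (ENSG00000198492, chromosome 1, 28736621 to 28769775, plus strand), the reader best known for mRNA decay, was at 24.2, 26.0 and 23.0 FPKM in shALKBH5 and at 22.9, 26.8 and 27.2 FPKM in shCtrl cells. The groups overlapped, with the lowest value of all in shCtrl replicate 1. The log2 fold change was -0.07 (SE 0.0776, adjusted p = 0.483), with a 95% confidence interval of -0.25 to 0.11 that leaves out a rise as large as that of YTHDF1. YTHDF2 was under the threshold in none of the 13 alternatives, over which its log2 fold change ran from -0.146 to -0.0229. It was -0.145 (adjusted p = 0.0716) without shCtrl replicate 1.

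YTHDF3 (ENSG00000185728, chromosome 8, 63168553 to 63212786, plus strand), which acts with the other YTHDF proteins in translation and decay, was at 8.81, 7.73 and 8.67 FPKM in shALKBH5 and at 5.55, 7.64 and 5.43 FPKM in shCtrl cells. The groups did not overlap, but shALKBH5 replicate 2 and shCtrl replicate 2 nearly met. Its mean was 8.40 ± 0.587 FPKM in shALKBH5 and 6.21 ± 1.24 FPKM in shCtrl cells (SD, n = 3), a rise of 0.45 on the log2 scale (SE 0.132, adjusted p = 0.0211). Without shCtrl replicate 2 the log2 fold change was 0.60 (adjusted p = 0.000696). The call was lost in 5 of 13 alternatives, with adjusted p = 0.0691 without a filter on low genes, 0.0627 without shALKBH5 replicate 1, 0.0598 without shALKBH5 replicate 3 and 0.0682 without either shCtrl replicate 1 or shCtrl replicate 3.

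Summed over the 3 paralogs, YTHDF mRNA was at 68.6, 70.7 and 66.9 FPKM in shALKBH5 and at 54.4, 59.8 and 58.8 FPKM in shCtrl cells, without overlap. The make-up of the family also moved. YTHDF1 held 52.3 ± 0.436% of the summed FPKM in shALKBH5 and 44.9 ± 2.59% in shCtrl cells (SD, n = 3), and YTHDF2 held 35.5 ± 1.23% and 44.4 ± 2.06%, both without overlap. Shares of a sum depend on each other, and the FPKM of YTHDF2 itself overlapped between the groups. The share of YTHDF3 overlapped, at 12.2 ± 1.14% and 10.7 ± 1.82%. The ratio of YTHDF1 to YTHDF2 was 1.47, 1.42 and 1.53 in shALKBH5 and 1.13, 0.950 and 0.964 in shCtrl cells, without overlap (two-sided exact permutation test, p = 0.1, which 3 against 3 libraries cannot go below). The ratio of YTHDF1 to YTHDF3 was 4.30 ± 0.422 and 4.27 ± 0.821, with overlap.

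YTHDC1 (ENSG00000083896, chromosome 4, 68310387 to 68350090, minus strand), the nuclear reader of splicing and export, was at 3.88, 3.29 and 3.83 FPKM in shALKBH5 and at 2.61, 4.00 and 2.97 FPKM in shCtrl cells. Its highest value was that of shCtrl replicate 2 and its lowest values those of the other shCtrl libraries. The log2 fold change was 0.21 (SE 0.154, 95% confidence interval -0.15 to 0.57, adjusted p = 0.267), and 0.38 with adjusted p = 0.0192 without shCtrl replicate 2. Without shCtrl replicate 1 it was 0.082 (adjusted p = 0.649).

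YTHDC2 (ENSG00000047188, chromosome 5, 113513694 to 113595285, plus strand), an RNA helicase with a YTH domain that is best known for its part in meiosis, was the lowest reader. Its levels were 1.01, 0.819 and 0.815 FPKM in shALKBH5 and 0.582, 0.929 and 0.610 FPKM in shCtrl cells. Here shCtrl replicate 2 lay among the shALKBH5 libraries. The log2 fold change was 0.30 (SE 0.195, 95% confidence interval -0.16 to 0.76, adjusted p = 0.219), and 0.49 with adjusted p = 0.0359 without that library. Without shCtrl replicate 1 it was 0.19 (adjusted p = 0.461). The shares of YTHDC1 in the summed YTHDC mRNA were 80.6 ± 1.63% in shALKBH5 and 82.0 ± 0.913% in shCtrl cells (SD, n = 3), with overlap.

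IGF2BP1 (ENSG00000159217, chromosome 17, 48997385 to 49056145, plus strand), an oncofetal stabiliser of mRNAs, was at 24.3, 24.6 and 23.9 FPKM in shALKBH5 and at 20.1, 20.8 and 20.2 FPKM in shCtrl cells. The groups were tight and separate. The mean rose from 20.4 ± 0.337 to 24.3 ± 0.376 FPKM (SD, n = 3), which was 0.25 on the log2 scale (SE 0.0382, adjusted p = 0.000909), and the call held in all 13 alternatives.

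IGF2BP2 (ENSG00000073792, chromosome 3, 185643130 to 185825042, minus strand), the paralog that adult tissues keep, was at 29.6, 30.0 and 27.1 FPKM in shALKBH5 and at 26.7, 33.1 and 29.9 FPKM in shCtrl cells. Both the lowest and the highest value were shCtrl libraries. The log2 fold change was -0.05 (SE 0.0819, 95% confidence interval -0.24 to 0.15, adjusted p = 0.653), and 0.031 without shCtrl replicate 2, so no direction can be given.

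IGF2BP3 (ENSG00000136231, chromosome 7, 23310209 to 23470491, minus strand), the other oncofetal paralog, had the largest change of the 9 readers and the only fall that passed the test. It was at 4.17, 3.34 and 3.59 FPKM in shALKBH5 and at 6.68, 8.78 and 6.48 FPKM in shCtrl cells. The highest shALKBH5 library was well under the lowest shCtrl library. The mean went from 7.31 ± 1.27 to 3.70 ± 0.423 FPKM (SD, n = 3), which was -0.96 on the log2 scale (SE 0.132, 95% confidence interval -1.27 to -0.65, adjusted p = 0.000570). It was -0.82 without shCtrl replicate 2, between -1.04 and -0.82 with each library left out in turn, and called in all 13 alternatives. The last 1521 bp of the gene overlap MALSU1 on the other strand, which was at a mean of 7.63 FPKM in shALKBH5 and 6.68 FPKM in shCtrl cells. Whether counting used the strand is not given in the sources used here, so reads of this stretch cannot be assigned to either gene.

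The 2 oncofetal IGF2BP genes thus moved in opposite directions. The ratio of IGF2BP1 to IGF2BP3 was 5.84, 7.37 and 6.65 in the shALKBH5 libraries and 3.02, 2.36 and 3.12 in the shCtrl libraries, without overlap (two-sided exact permutation test, p = 0.1). Since the groups stood apart in both genes and in opposite directions, this ratio could not overlap. Its p was thus fixed and adds nothing to the calls of the 2 genes. Of the summed IGF2BP mRNA, IGF2BP3 held 6.51 ± 0.706% in shALKBH5 and 12.7 ± 1.29% in shCtrl cells, and IGF2BP1 held 42.7 ± 0.948% and 35.5 ± 2.27% (SD, n = 3), both without overlap. IGF2BP2 held the largest part in both groups, at 50.8 ± 1.03% and 51.8 ± 1.72%, with overlap. The sum of the 3 genes was 56.9 ± 1.97 and 57.6 ± 4.66 FPKM, also with overlap. How the authors' counting treated reads that match several paralogs is not given in the sources used here.

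**Figure D2:**
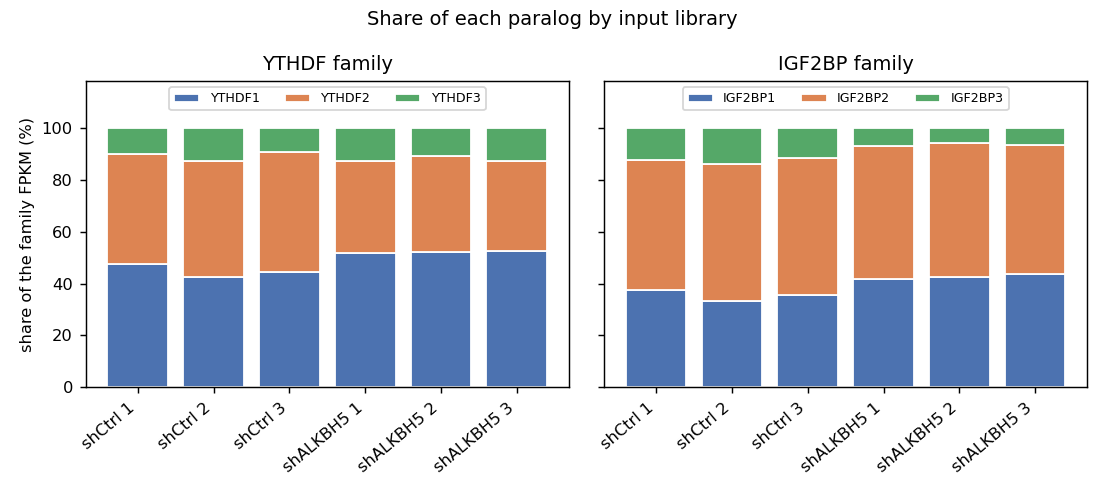
Share of each paralog in the summed FPKM of the YTHDF family (left) and the IGF2BP family (right), 1 stacked bar per input library. YTHDF1 makes up more and YTHDF2 less of the bar in each shALKBH5 library than in each shCtrl library, and the IGF2BP3 share is 5.77 to 7.18% in shALKBH5 against 11.5% or more in shCtrl libraries.

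FMR1 (ENSG00000102081, chromosome X, 147911919 to 147951125, plus strand) encodes the translational regulator FMRP, which binds RNA through KH domains and has been proposed as a reader. It was at 1.69, 1.53 and 1.58 FPKM in shALKBH5 and at 1.21, 1.51 and 1.22 FPKM in shCtrl cells. The groups did not overlap, with shCtrl replicate 2 just under the lowest shALKBH5 library. The log2 fold change was 0.27 (SE 0.115, unadjusted p = 0.0474 and adjusted p = 0.0734 from limma), and 0.37 with adjusted p = 0.0175 without shCtrl replicate 2.

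In 5 of the 9 readers the groups did not overlap, 4 with shALKBH5 higher and 1 with shCtrl higher, against 67.0%, 38.0% and 29.0% of all genes tested. By level, 2 tiers could be seen in both groups. IGF2BP2, YTHDF1, YTHDF2 and IGF2BP1 stood at means of 20.4 to 35.9 FPKM and YTHDF3, IGF2BP3, YTHDC1, FMR1 and YTHDC2 at 0.707 to 8.40 FPKM. In shALKBH5 cells the order was YTHDF1, IGF2BP2, YTHDF2, IGF2BP1, YTHDF3, IGF2BP3, YTHDC1, FMR1 and YTHDC2, and the neighbours YTHDF2 and IGF2BP1, and IGF2BP3 and YTHDC1, overlapped in their values. In shCtrl cells it was IGF2BP2, YTHDF1, YTHDF2, IGF2BP1, IGF2BP3, YTHDF3, YTHDC1, FMR1 and YTHDC2, with overlap of YTHDF1 and YTHDF2 and of IGF2BP3 and YTHDF3. The other neighbours did not overlap. In shCtrl cells, though, the lowest value of IGF2BP2 (26.7 FPKM) lay under the highest of YTHDF2 (27.2 FPKM), which was not its neighbour. YTHDF1 thus had the highest mean after knockdown and IGF2BP2 in the control. The 9 readers together were at 133, 134 and 128 FPKM in shALKBH5 and at 112, 129 and 120 FPKM in shCtrl cells, and only shCtrl replicate 2 reached the range of the shALKBH5 libraries.

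**Figure D3:**
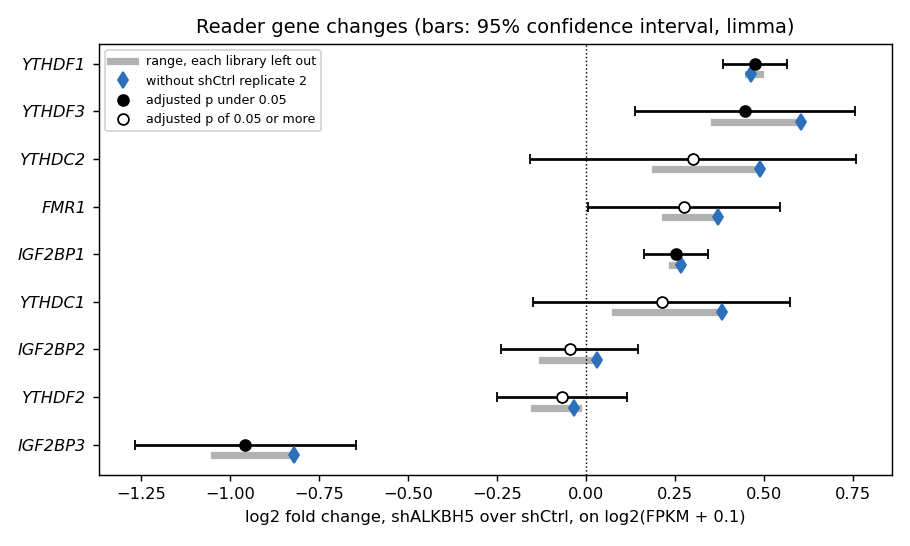
Log2 fold change of each reader (circle, filled at an adjusted p below 0.05) with its 95% confidence interval from limma. The grey bar gives the range with each library left out in turn and the blue diamond the value without shCtrl replicate 2, which lies to the right of the circle in 8 of the 9 readers and to its left in YTHDF1.

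The other genes of the m6A pathway were counted from lists of writers, erasers, other proposed readers, reader partners and reader targets, whose counts stand beside 34.7% of all genes tested called higher and 26.2% called lower. Of 9 writers, METTL16 (0.45 log2, adjusted p = 0.000407) and METTL3, the catalytic subunit (0.21, adjusted p = 0.0123), rose and none fell, with a list median of 0.08. METTL3 lost its call without shALKBH5 replicate 3 (adjusted p = 0.0509) and after each library was rescaled by its median ratio (adjusted p = 0.101). FTO, the eraser that was not targeted, rose from 1.58 ± 0.0378 to 2.43 ± 0.0664 FPKM (SD, n = 3), which was 0.59 on the log2 scale (SE 0.0758, adjusted p = 0.000401), and was called in all 13 alternatives.

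Against the same 34.7% higher and 26.2% lower over all genes, 1 of 10 other proposed readers rose and 4 fell, with a median of -0.09, and 1 of the 4, ELAVL1, lost its call in 8 of 13 alternatives. LRPPRC, a regulator of mitochondrial mRNAs, rose by 0.69 (adjusted p = 0.00182), and HNRNPA2B1, a nuclear protein of splicing and microRNA processing, fell by 0.73 (adjusted p = 7.070e-05) on the log2 scale. Of 12 subunits of the CCR4-NOT deadenylase complex, through which YTHDF2 acts, 2 rose and 4 fell, with a median of -0.04, and 1 of the 4, CNOT1, likewise lost its call in 8 of 13. The changes were largest for TNKS1BP1 (1.30, adjusted p = 8.445e-07) and for the catalytic subunit CNOT7 (-0.80, adjusted p = 0.000580). Of 12 tested partners of reader proteins 1 rose and 4 fell, with a median of -0.05, and 1 of the 4, CYFIP1, lost its call in 5 of 13. RIDA, which bridges YTHDF2 to an endonuclease, rose by 1.09 (adjusted p = 5.525e-06), and SRSF10, a splicing factor that YTHDC1 binds, fell by 0.33 (adjusted p = 0.0218). SRSF10 lost its call without shALKBH5 replicate 2 (adjusted p = 0.0655), without shALKBH5 replicate 3 (adjusted p = 0.0684) and without the filter (adjusted p = 0.0557).

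Of 14 mRNAs known as targets of IGF2BP proteins 11 were tested, and 3 rose and 6 fell, against 34.7% higher and 26.2% lower over all genes, with a median of -0.24. LIN28B rose most (0.84, adjusted p = 0.00212), from 1.07 ± 0.151 to 2.01 ± 0.323 FPKM, and BTRC, a ubiquitin ligase subunit, fell most (-1.54, adjusted p = 5.499e-06), from 4.96 ± 0.421 to 1.64 ± 0.0283 FPKM (SD, n = 3). MYC, the best known target, was at 4.36, 4.25 and 4.05 FPKM in shALKBH5 and 4.15, 3.88 and 4.09 FPKM in shCtrl cells and did not pass the test (log2 fold change 0.06, adjusted p = 0.423). MYC, and METTL3 among the writers, were named after their values were seen. Over all genes tested the median was 0.09, and 0.01 after that rescaling.

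The methylation of the readers' own mRNAs was read from 1 peak list per group, in which a peak is a stretch enriched in IP over input. With 1 list per group peaks have no replicate check, and their fold enrichments carry no error or test. All 9 readers had a peak in both lists, as did 82.6% of all genes tested. Each list held 31 reader peaks. Of the shALKBH5 peaks 27 (87.1%) overlapped a shCtrl peak, against 78.1% of all peaks in that list, and of the shCtrl peaks 29 (93.5%) overlapped a shALKBH5 peak, against 81.3%. The reader peaks were assigned to the 5'UTR (9 in shALKBH5 and 9 in shCtrl), to other exons (4 and 4), to introns (5 and 6) and to the 3'UTR (13 and 12). The 3'UTR share was 41.9% and 38.7%, against 45.5% and 46.2% over all peaks. A 3'UTR peak was present in both lists for 8 of the 9 readers, against 64.5% of all genes tested and 68.6% of those with at least 20 FPKM. For FMR1 this rests on a peak near the gene start, described below. IGF2BP1 was the exception, although it was one of the 4 most abundant readers, and 25.5% of genes with at least 20 FPKM likewise had none in either list.

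**Figure D4:**
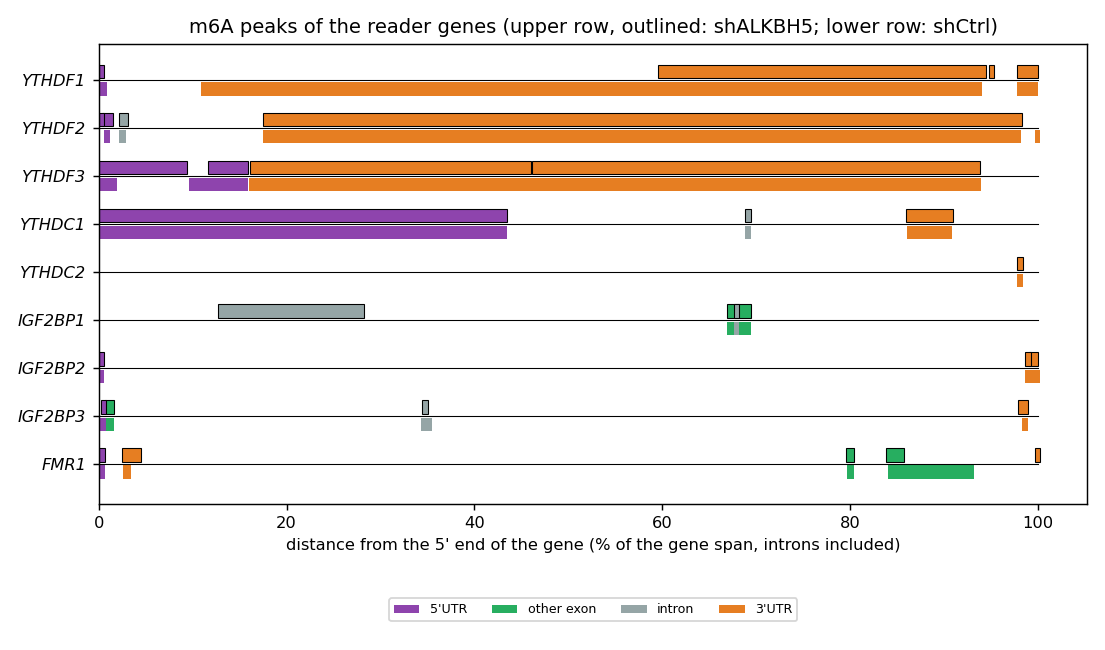
Peaks of each reader along its gene, as distance from the 5' end in percent of the gene span with introns included, for the shALKBH5 list (outlined, above each line) and the shCtrl list (below). Colours give the annotated region, and wide blocks are peaks whose start and end lie on either side of introns. Most readers have a peak at the 5' end and another near the 3' end in both lists, while YTHDC2 has 1 peak and IGF2BP1 none at either end.

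The 3 YTHDF mRNAs carried a similar pattern, with 5'UTR peaks of lower fold enrichment than the main 3'UTR peak in both lists. In YTHDF2 the 3'UTR peak ran from 28742417 to 28769238 of chromosome 1 in the shALKBH5 and to 28769208 in the shCtrl list, with fold enrichments of 8.01 and 8.47. In YTHDF1 the main 3'UTR peak ran from 63196567 to 63203797 of chromosome 20 in shALKBH5 (6.30-fold) and from 63196657 to 63213883 in shCtrl cells (7.45-fold), and a further one at the end of the gene had 6.64-fold and 7.00-fold. In YTHDF3 a single shCtrl peak from 63175626 to 63210124 of chromosome 8 (9.45-fold) was split in the shALKBH5 list into peaks of 8.65-fold and 5.02-fold. The first peak of YTHDF1 at the 5' end was 1.54-fold and 1.97-fold. These spans cross introns, so their genomic length is not the length of methylated RNA.

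At the 5' end of YTHDF2 the lists differed more. Its 5'UTR peak, 28736740 to 28737109 in shALKBH5, was 5.77-fold, and the overlapping shCtrl peak, 28736800 to 28737019, was 1.67-fold. The intronic peak next to it, from 28737347, went the other way, at 4.08-fold in shALKBH5 and 11.5-fold in shCtrl cells. YTHDC1 kept all 3 of its peaks in both lists, with a 5'UTR peak from 68332841 to 68350090 of chromosome 4 at 9.58-fold and 11.8-fold, and a 3'UTR peak at 2.51-fold and 3.02-fold. YTHDC2 held 1 peak, in its 3'UTR from 113593489 of chromosome 5, ending at 113593998 in the shALKBH5 list (18.4-fold) and at 113593848 in the shCtrl list (4.99-fold). The gene is expressed near 1 FPKM, and the input coverage behind these ratios is unknown.

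The peaks of the IGF2BP genes were less alike. IGF2BP2 had its strongest peak in the 3'UTR, 185643130 to 185644747 of chromosome 3 in shALKBH5 (10.3-fold), where the shCtrl list had a peak from 185643489 to 185644687 (8.97-fold) and a separate one at the gene's end (2.55-fold). IGF2BP3 held 4 peaks in shALKBH5 and 7 in shCtrl cells, and all 4 of the former and 6 of the latter overlapped a peak of the other list. Its 3'UTR peak ran from 23311886 to 23313522 of chromosome 7 in shALKBH5 (8.61-fold) and from 23311946 to 23312789 in shCtrl cells (6.93-fold). Its 5'UTR peak, 23469459 to 23470162, was 4.90-fold in shALKBH5, against 2.44-fold for the overlapping shCtrl peak, 23469952 to 23470222. These 2 did not reach 50% reciprocal overlap, and the shCtrl list held a further 5'UTR peak (2.03-fold). An intronic region near 23414603 held 1 shALKBH5 peak (22-fold), which overlapped 3 shCtrl peaks (3.83-fold to 14-fold). The weakest of these 3 had a false discovery rate of 0.0794.

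IGF2BP1 had an exonic peak with the same bounds in both lists, 49036713 to 49038186 of chromosome 17, at 7.26-fold in shALKBH5 and 5.47-fold in shCtrl cells. An intronic peak inside it, 49037122 to 49037429, was 8.08-fold and 47.2-fold. The bounds of that intronic peak are exactly those of another gene of the expression table on the same strand, AC091133 (ENSG00000251550), whose mean was 0.817 FPKM in shALKBH5 and 0.618 FPKM in shCtrl cells. Which of the 2 transcripts the fragments came from cannot be told apart.

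FMR1 held 5 peaks in shALKBH5 and 4 in shCtrl cells. The strongest lay at the gene start, from 147911919 of chromosome X, at 15.9-fold and 8.94-fold, and exonic peaks from 147943138 and 147943167 had 3.44-fold and 2.72-fold. A peak that the lists assign to a 3'UTR lay only 976 and 1006 bp from the gene start, on a short transcript (7.35-fold in shALKBH5 and 7.66-fold in shCtrl cells, with a false discovery rate of 0.236 in the latter). A peak at the real end of the gene, 147951005 to 147951125, was listed only for shALKBH5 cells (9.80-fold, false discovery rate 0.0759).

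Reader peaks of the same gene and region that overlapped 1 to 1 gave 23 pairs between the lists. The fold enrichment was higher in shALKBH5 in 8 pairs and lower in 15, with a median ratio of shALKBH5 over shCtrl of 0.946 and a range of 0.171 to 3.69. Over all 24266 such pairs of the lists the median was 0.969 and 45.7% lay above 1, with quartiles of 0.784 and 1.23. The reader pairs farthest above 1 were the YTHDC2 3'UTR peak (ratio 3.69, above 98.3% of all pairs), the YTHDF2 5'UTR peak (3.46, above 97.9%), the IGF2BP3 5'UTR peak (2.01, above 92.3%) and the FMR1 5'UTR peak (1.78, above 90.1%). Farthest below were the intronic peaks of IGF2BP1 (0.171, above 0.474%) and YTHDF2 (0.355, above 3.63%). The strong 3'UTR peaks of YTHDF1 and YTHDF2 had ratios of 0.846 to 0.949. By region, the ratio was above 1 in 3 of 8 pairs in the 5'UTR, 3 of 4 in other exons, 0 of 3 in introns and 2 of 8 in the 3'UTR. All pairs of the lists were not split in this way, so these small counts have no background. The 3'UTR pairs include the FMR1 peak near the gene start, and the intronic pairs the IGF2BP1 peak with the bounds of AC091133.

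**Figure D5:**
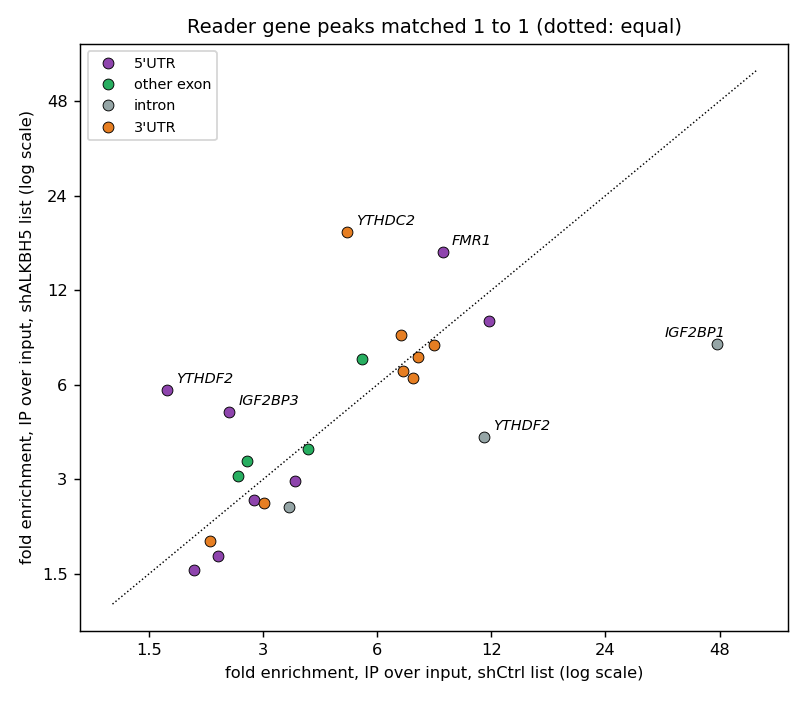
Fold enrichment of the 23 reader peaks matched 1 to 1 between the shCtrl list (x axis) and the shALKBH5 list (y axis), both on log axes, coloured by region. Most points lie near or just under the dotted line of equality, with 4 named pairs above it and the intronic pairs of IGF2BP1 and YTHDF2 below.

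The authors' table of differential peaks listed 6513 peaks, and 4 of the 9 readers had a peak in it, against 32.7% of all genes tested. These were the 5'UTR peak of YTHDF2 (28736740 to 28737109), an exonic peak of IGF2BP3 (23467912 to 23469399), the main 3'UTR peak of YTHDF1 (63196567 to 63213883) and an exonic peak of FMR1 (147944894 to 147948433). The IGF2BP3 and FMR1 peaks were 3.06-fold against 2.58-fold and 3.75-fold against 3.93-fold in the shALKBH5 and shCtrl lists. Of the readers with a listed peak, YTHDF1 was higher, IGF2BP3 lower and YTHDF2 and FMR1 not called in the expression test.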

How the data were processed

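RNA-Seq of 6 input libraries and MeRIP-Seq (m6A immunoprecipitation with sequencing) of A375 cells were used, with groups and replicate numbers taken from the sample labels. The authors deposited FPKM per gene and input library, and for each group 1 peak list with a fold enrichment (a ratio of IP over input) and a log10 p and FDR, which was treated as a score. Aligner, counter, peak caller and pooling of replicates are not given in the sources used here. The submitters' processing notes name mm10, a mouse build, but all 9 readers, and 75.0% of 15674 protein-coding genes, share a gene bound with the human assembly GRCh38.p14 of RefSeq, so coordinates are printed as in the files. Peak starts count from 0 in the lists and were changed to count from 1. The authors' own fold changes and p-values, deposited in the expression table and the table of differential peaks, were not used, and of the latter table positions alone were taken. The IP libraries were not analysed one by one here.

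No counts were used, and low FPKM values showed no steps of whole reads (the most frequent ratio between 2 libraries took 0.373% of low genes in shALKBH5 and 0.279% in shCtrl), so depth is unknown and 3 libraries per group limit the precision. Genes averaging 0.5 FPKM or more were tested on log2(FPKM + 0.1) in R 4.3.3 with limma 3.58.1 (lmFit, then eBayes with a trend), two-sided, with Benjamini-Hochberg adjustment over all 12985 genes, in place of the count-based test that the study names. The script was tested on simulated data. Tables and figures used Python 3.11.15, pandas 2.3.3, numpy 2.4.6, scipy 1.17.1 and matplotlib 3.10.9. A peak counted as shared if a peak of the other list covered 1 bp of it on its strand. Symbols with more than 1 row in the table, such as MATR3, were left out of list counts.

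The 9 members and all gene lists were chosen with earlier results of these data known. By rule, the text names the members with their peaks, ALKBH5, both erasers, the most changed gene in each direction of every other list, and defining markers. METTL3, MYC and some list genes whose calls changed were named after their values were seen. Alternatives used a pseudocount of 1 or 0.01, a filter of 1 FPKM or none, libraries rescaled to their median ratio, replicate number as block, a variance prior with no trend, the libraries less each one in turn, peaks limited to a fold of 2 or more with FDR 0.01 or less, and a 50% reciprocal overlap. The same alternatives for the other lists were added after the data were seen.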

Additional observations from a re-analysis of the deposited data

How the results depend on the processing

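With each library left out in turn, 2 to 6 readers were higher and 1 was lower. The count of 6 came without shCtrl replicate 2, and the counts of 2, also found without a filter, came from the loss of YTHDF3. IGF2BP2 turned from -0.05 to 0.031 on the log2 scale without shCtrl replicate 2, ranged from -0.12 to 0.031 over the left-out libraries, and passed the test in none. With the replicate number as a block, 3 readers were higher and 1 lower, and no reader's call changed. Same-numbered libraries of the groups deviated together at r = 0.02, -0.05 and 0.06 across genes, so the numbers were not taken to pair the samples, and over all genes the block gave 4142 higher and 3129 lower. YTHDC2 was not tested at a filter of 1 FPKM. Rescaling moved the median of all genes from 0.09 to 0.01 and no reader's call. Without shALKBH5 replicate 1 the places of IGF2BP3 and YTHDC1, without shALKBH5 replicate 2 those of YTHDF2 and IGF2BP1, and without shCtrl replicate 1 those of YTHDF1 and YTHDF2 were exchanged. METTL3 and SRSF10 lost their calls as given above. Of the other list genes, named after their values were seen, ELAVL1 and CNOT1 lost their calls in 8 alternatives each, the replicate block among them (adjusted p = 0.0792 and 0.0617). CYFIP1 lost its call in 5, also under the block (0.0828), and with SRSF10 without shALKBH5 replicate 3, leaving 2 partners lower, beside 3039 of all 12962 genes tested there. POP1 and CPSF6 were lower after rescaling and without shCtrl replicate 1, which made 6 partners lower. Of all genes, 3919 of 12985 were lower after rescaling and 3362 of 13053 without shCtrl replicate 1. POP1 was also lower at a filter of 1 FPKM (0.0487) and without shALKBH5 replicate 2 (0.0326). NXF1 was higher without shCtrl replicate 1 (0.0358). CBLL1 was lower after rescaling (0.0153) and without shCtrl replicate 1 (0.0104), and XRN1, VIRMA and FXR1 were higher without shCtrl replicate 2 (0.0178, 0.00481 and 0.0417), XRN1 also with no trend in eBayes (0.0409). Stricter peaks numbered 23 in shALKBH5 and 26 in shCtrl cells, and 21 in each list overlapped at 50%. Without counts, the depth behind YTHDC2 and FMR1, the lowest readers, is unknown.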
